A study of Mus musculus with 2 samples.

Results

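The 9 genes described here encode the signalling subunits of the B cell receptor and the membrane proteins that raise or damp its signal: Cd79a, Cd79b, Cr2, Cd81, Cd22, Cd72, Siglecg, Cd37 and Vpreb3. They were chosen by function, and each was found in the gene tables by matching its Ensembl identifier to its symbol. They are 9 of 43346 genes measured, and all 9 are among the 12467 tested genes. A gene was tested when its TPM (abundance per transcript length, scaled to the same total in each library) averaged 1 or more and its counts summed to 50 or more. The measurements come from polyA RNA-seq of the spleen of 1 adult male C57BL/6J mouse aged 10 weeks, with no treatment, transgene or second tissue named in the labels. There are 2 libraries, technical replicates 1 and 2 of biological replicate 1, and both are listed with a size range of 350 to 450. The second was made in May 2015, after the publication that used the first, and the labels do not say whether it was made from the same RNA. Since the study has 1 animal and each arm of the comparison is 1 library, no p-value is given, and differences are between these 2 libraries alone.

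The B cell receptor is a membrane immunoglobulin that cannot signal by itself. It pairs with a dimer of Cd79a (Ig-alpha) and Cd79b (Ig-beta), whose cytoplasmic tails each carry an ITAM, a stretch with a pair of tyrosines that Src family kinases phosphorylate and that then docks the kinase Syk. Co-receptors set the threshold of this signal. Cr2 (complement receptor type 2, CD21) binds complement fragments on antigen and, in a complex with the tetraspanin Cd81, lowers the threshold. Cd22, Siglecg and Cd72 carry ITIMs, short stretches with 1 tyrosine that recruit phosphatases such as Ptpn6 (SHP-1), and so raise it. Spleen follicles and the marginal zone are rich in mature B cells, and Cr2 is also made by follicular dendritic cells.

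The signalling stretches are shown because ITAMs and ITIMs are known as the activating and inhibitory elements of these receptors. They were read from GENCODE M21 transcripts (GRCm38), 5′ to 3′, with the tyrosine codons in capitals. The ITAM of Cd79a was found at codons 182 to 196 of 220, across exons 4 and 5 of 5 (chr7:24901296-24901469, plus strand, intron included). That of Cd79b was found at codons 195 to 209 of 228, across exons 5 and 6 of 6 (chr11:106311867-106312012, minus strand, intron included). Both are 45 bases long, with 31 bases alike and 14 that differ.
Cd79a ITAM: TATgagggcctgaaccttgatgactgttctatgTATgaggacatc
Cd79b ITAM: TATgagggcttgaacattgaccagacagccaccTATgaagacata

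The search pattern was a tyrosine followed 3 residues later by leucine or isoleucine, repeated after 6 to 8 residues. Among 21526 mouse genes with a complete coding sequence, 2.88% held this pattern, and among the 9 members only Cd79a and Cd79b did. The ITIM pattern was looser: serine, isoleucine, valine or leucine, with a tyrosine 2 residues on and isoleucine, leucine or valine 3 residues after that. It occurred in 49.15% of those genes, so a match alone describes little, and it also matched parts of Cr2 and Cd81 that are not known as signalling tails, and codons 191 to 196 of Cd79a, inside the ITAM. In Cd22 (transcript Cd22-203, 868 codons, chromosome 7, minus strand) 4 matches lay close to the end of the coding sequence, with tyrosine codons 783, 817, 843 and 863 in exons 13, 14, 15 and 15.
Cd22 codon 783: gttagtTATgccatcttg
Cd22 codon 817: gtcactTACtcggtgata
Cd22 codon 843: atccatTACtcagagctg
Cd22 codon 863: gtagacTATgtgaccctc
In Siglecg (Siglecg-201, 688 codons, chromosome 7, plus strand) matches with tyrosine codons 659 and 682 lay in the last exon, exon 12. In Cd72 (Cd72-205, 354 codons, chromosome 4, minus strand), whose cytoplasmic tail is at the start of the protein, matches with tyrosine codons 7 and 39 lay in exons 1 and 2.
Matches elsewhere in these proteins are not shown.
Siglecg codon 659: ctccacTATgctgctctc
Siglecg codon 682: tctgatTACacagaggtc
Cd72 codon 7: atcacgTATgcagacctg
Cd72 codon 39: ctcaccTACgagaatgtg

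Expected counts on genes came to 27528824 in replicate 1 and 3806381 in replicate 2, so replicate 1 was 7.23 times deeper. In the B cell list, 18 of 18 other B cell genes reached 1 TPM in both libraries, which does not by itself identify the tissue as spleen. Counts were compared after TMM scaling, which sets the library sizes from the bulk of the genes. A gene was called higher or lower in replicate 2 when the exact 95% interval of its count ratio lay wholly beyond 1.5-fold. These intervals cover counting error only. Scaling matters here: the median log2 ratio of replicate 2 over replicate 1 over all tested genes was -0.27 with TMM, -0.14 with DESeq2 size factors and -1.53 with the total count. In TPM it was -2.10 and in FPKM -1.26 (pseudocount 1), so most genes had a lower TPM in replicate 2: 80.8% were more than 1.5-fold lower and 8.40% more than 1.5-fold higher.

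The 9 genes did not differ between the libraries in 1 direction. Under TMM, 4 members were called higher in replicate 2 (Vpreb3, Cd79a, Cd72 and Cd79b), against 28.0% of tested genes, and 3 were called lower (Cd81, Cr2 and Cd22), against 32.6%. Siglecg and Cd37 were called neither. A stricter rule asked for the same call under TMM, DESeq2 and total count and the same direction in TPM. It left 2 members higher, Cd79a and Vpreb3, against 11.8% of tested genes, and 3 lower, Cr2, Cd81 and Cd22, against 30.5%. For Cd79a this rests on a TPM only 1.02-fold higher, while its deposited posterior mean TPM was lower in replicate 2. The members' median log2 ratio was 0.33 under TMM and -0.93 under total count, beside -0.27 and -1.53 for all tested genes. The SD of the log2 ratio was 1.98 over the members and 2.29 over all tested genes.

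**Figure D1:**
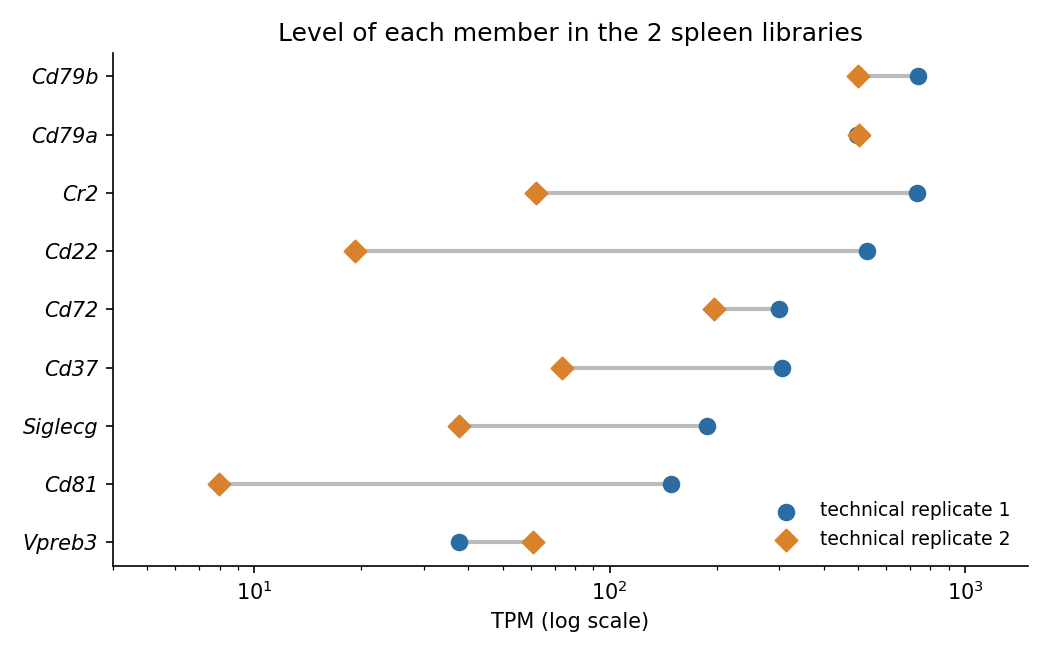
TPM of the 9 members on a log axis, circles for technical replicate 1 and diamonds for technical replicate 2, joined by a line and ordered by mean TPM. Cd79a (495.53 and 504.33) is at nearly the same level in both libraries, and Cd22 (531.60 and 19.22) and Cd81 (148.64 and 7.97) are the farthest apart.

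Cd79a and Cd79b, the signalling subunits, were the most abundant members of replicate 2. Cd79a, at chr7:24897381-24902197 on the plus strand, had 12007 counts in replicate 1 and 3916 in replicate 2, and 495.53 and 504.33 TPM. Its log2 count ratio was 2.50 (95% interval 2.45 to 2.55), or 5.66-fold higher after TMM scaling. It was 2.36-fold higher by total count and 1.02-fold higher in TPM. Its deposited posterior mean TPM went the other way, at 473.01 in replicate 1 and 448.36 in replicate 2. The direction of Cd79a in TPM therefore depended on the estimate. Its TPM was thus all but equal in the libraries while its share of the reads was not. Cd79a has 1 annotated transcript in the tables, and its effective length (the number of positions a fragment can start at) was 1265.94 bases in replicate 1 and 1322.43 in replicate 2. Its FPKM (fragments per kilobase, scaled to the fragments of the library) was 344.54 and 777.96, 2.26-fold higher. Summed over all genes, TPM was 1.44 times FPKM in replicate 1 and 0.648 times in replicate 2.

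Cd79b, at chr11:106311341-106314762 on the minus strand, had 14333 counts in replicate 1 and 3164 in replicate 2. Its log2 count ratio was 1.94 (1.88 to 1.99), or 3.83-fold higher, but its TPM was 1.48-fold lower, at 737.74 and 499.35, and its FPKM 1.5-fold higher, at 512.94 and 770.28. The direction of Cd79b therefore depended on the unit. The ratio of Cd79a to Cd79b TPM was 0.672 in replicate 1 and 1.01 in replicate 2, for proteins that pair in a dimer. In counts that ratio was 0.838 and 1.24, a 1.48-fold difference that no library scaling alters, and the count ratio intervals of the 2 genes did not overlap. With the GC trend removed (below) the difference was 1.06-fold and their intervals overlapped. Together they held 35.5% of the members' summed TPM in replicate 1 and 68.7% in replicate 2.

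Cr2 and Cd81, which encode the complement receptor and its tetraspanin partner, were lower in replicate 2 by each measure that did not remove a GC trend. Cr2, at chr1:195136811-195176716 on the minus strand, had 38399 counts in replicate 1, the most of any member, and 845 in replicate 2. Its TPM was 733.51 and 62.21, 11.8-fold lower, and its log2 count ratio was -1.39 (-1.49 to -1.29), or 2.62-fold lower after TMM scaling. Cr2 was level with Cd79b in replicate 1 (0.994 times its TPM) and at 0.125 times its TPM in replicate 2. Cd81, at chr7:143052739-143067934 on the plus strand, had 3667 and 58 counts and 148.64 and 7.97 TPM, 18.6-fold lower. Its log2 count ratio was -1.87 (-2.27 to -1.49), the lowest of the 9, and its 58 counts make it the least precise. The pair held 25.4% of the members' TPM in replicate 1 and 4.80% in replicate 2. Markers of follicular dendritic cells, which also make Cr2, summed to 2395 TPM in replicate 1 and 464.4 in replicate 2, with 4 of 9 tested higher and 3 lower under TMM. The median log2 TPM ratio of all tested genes was -2.10. Of these markers, Fcer2a is also in the B cell list and Vcam1 in the macrophage list. The part of follicular dendritic cells in the Cr2 result was not tested, and in bulk tissue fewer cells of a type and less RNA per cell cannot be told apart.

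The 3 ITIM-bearing co-receptors went separate ways. Cd22, a lectin of the Siglec family that binds sialic acids and restrains receptor signalling, lies at chr7:30865402-30880342 on the minus strand. It had 17827 counts in replicate 1 and 433 in replicate 2. The log2 count ratio was -1.25 (-1.39 to -1.11), or 2.37-fold lower, and its TPM was 531.60 and 19.22, 27.7-fold lower. Cd22 thus fell from the third most abundant member to the eighth. Cd72, a C-type lectin-like inhibitor that binds semaphorin Sema4d, lies at chr4:43446462-43454628 on the minus strand and had 4624 and 1485 counts. Its counts gave a log2 ratio of 2.48 (2.39 to 2.56), or 5.57-fold higher, while its TPM was 1.52-fold lower, at 298.95 and 196.16, so its direction too depended on the unit. Siglecg, the other inhibitory Siglec here and known for restraining B-1 cells, lies at chr7:43408204-43418358 on the plus strand and had 11517 and 833 counts. In counts the log2 ratio was 0.33 (0.22 to 0.43) under TMM and -0.93 under total count, where it was called lower, and its TPM was 187.46 and 37.70.

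A difference between members in count ratio does not depend on the library scaling. The ratio of Cd72 to Cd22 TPM was 0.562 in replicate 1 and 10.2 in replicate 2, and the ratio of their counts was 0.259 and 3.43, a 13.2-fold difference. For Cd72 and Siglecg the count ratio differed 4.44-fold, and for Siglecg and Cd22 2.98-fold. Among all 36 pairs of members, the intervals did not overlap for 34. The exceptions were Cd79a with Cd72, which differed 1.02-fold in count ratio, and Cr2 with Cd22, which differed 1.10-fold. The same count was not made for pairs of other genes, so it cannot be read as particular to the members. The ratios were spread more widely over all tested genes (SD 2.29) than over the members (1.98).

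Cd37, a tetraspanin largely restricted to mature leukocytes, lies at chr7:45233632-45239115 on the minus strand and had 8179 counts in replicate 1 and 291 in replicate 2. The log2 count ratio of Cd37 was -0.70 (-0.87 to -0.53), short of the 1.5-fold rule, but it was called lower by total count (-1.96) and with no filter on low values (-0.98). Its TPM was 304.95 and 73.33, 4.16-fold lower. The 2 tetraspanins among the members stood in a ratio of 2.05 (Cd37 over Cd81, TPM) in replicate 1 and 9.20 in replicate 2.

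Vpreb3, a small immunoglobulin-domain protein known from B cell precursors, where it binds the mu heavy chain, lies at chr10:75943057-75949657 on the plus strand. It was the least abundant member in replicate 1, with 313 counts and 37.68 TPM, and had 175 counts and 60.77 TPM in replicate 2. Its count ratio on the log2 scale was 3.28 (3.0 to 3.55), or 9.70-fold higher, the highest of the 9, and its TPM was 1.61-fold higher. It is also the shortest, at 625 bases. Of 10 other genes of B cell precursors, 4 were tested, with 1 higher (Sox4, a transcription factor of progenitors, 1.27), 2 lower (Il7r, the interleukin 7 receptor, -3.12, and Cd93, -2.09) and 1 neither. Il7r is also in the list of T cell markers, so its ratio is not particular to B cell precursors. The surrogate light chain genes Vpreb2 and Igll1 and the recombinase gene Rag2 were at 0 counts in both libraries. Vpreb1, the other surrogate light chain gene, had 6 and 9 counts and Rag1 had 18 and 0, too few to be tested.

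**Figure D2:**
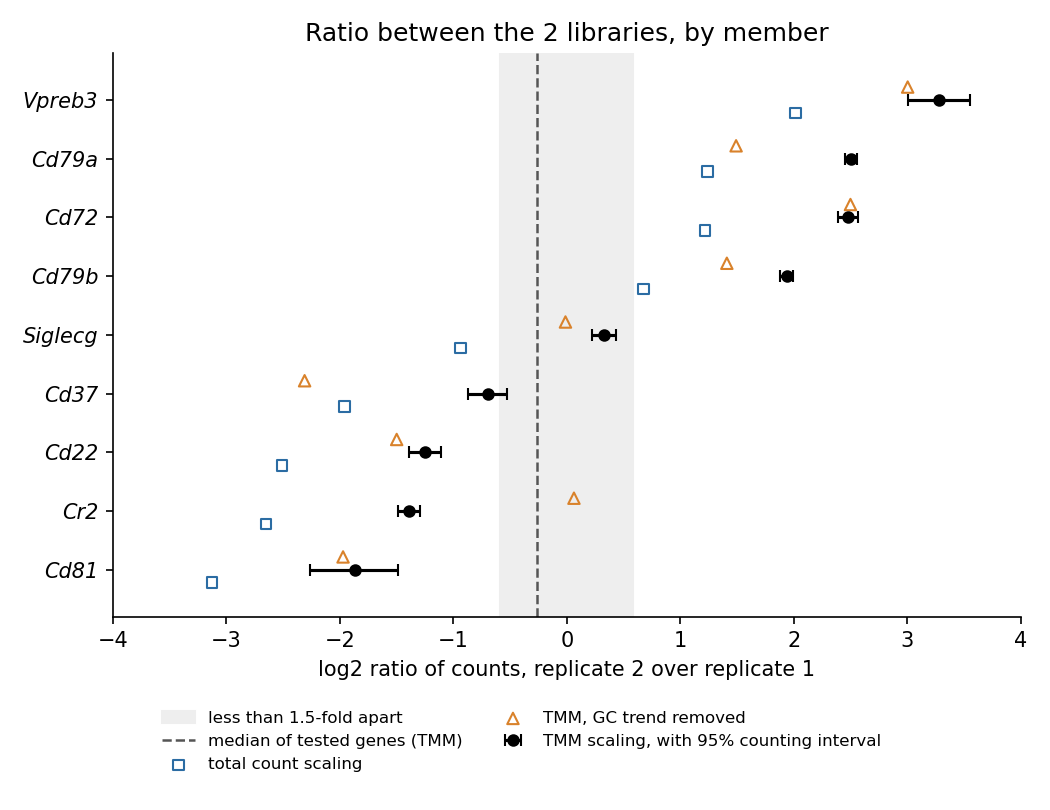
Log2 ratio of counts of the 9 members, replicate 2 over replicate 1. Filled circles with bars give the TMM ratio with its 95% counting interval, squares the total count ratio, triangles the TMM ratio after removal of the GC trend, the band less than 1.5-fold and the dashed line the median of the tested genes (-0.27). Vpreb3, Cd79a, Cd72 and Cd79b lie above the band under TMM and total count, and Cr2 moves from -1.39 to 0.06 when the GC trend is removed.

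Between the highest ratio, Vpreb3, and the lowest, Cd81, lay 5.14 on the log2 scale, or 35.3-fold. The members' TPM spanned 19.6-fold in replicate 1 and 63.3-fold in replicate 2. In replicate 1 the order from the top was Cd79b, Cr2, Cd22, Cd79a, Cd37, Cd72, Siglecg, Cd81 and Vpreb3. In replicate 2 it was Cd79a, Cd79b, Cd72, Cd37, Cr2, Vpreb3, Siglecg, Cd22 and Cd81. Cd79b and Cr2 were neighbours in replicate 1 with overlapping deposited intervals of posterior mean TPM (692 to 716 and 690 to 716), as were Cd37 and Cd72 (285 to 300 and 276 to 297). In replicate 2 the same held for Cd79a and Cd79b (434 to 463 and 428 to 459), for Vpreb3 and Cr2 (45.4 to 61.5 and 51.5 to 69.1), and for Cr2 and Cd37 (58.9 to 77.7). The level of these intervals is not stated, and the TPM itself lay within them for 1 of 9 members in replicate 1 and 5 of 9 in replicate 2. For 0 of the 9 members did the deposited intervals of the 2 libraries overlap, and they did not overlap for 87.7% of all tested genes either. All 9 together summed to 3476 TPM in replicate 1 and 1461 in replicate 2, which is 0.348% and 0.146% of all TPM. In counts they took 0.403% and 0.294% of each library. After TMM scaling the direction was the opposite, with a log2 ratio of their summed counts of 0.81 (0.78 to 0.84), or 1.75-fold higher in replicate 2.

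GC content moved with the ratio over all tested genes: the median log2 ratio was -1.50 for 2353 genes with at most 44% GC and 2.23 for 1823 genes above 56% GC. Cr2 transcripts held 42.2% GC, and the other 8 members between 51.7% (Cd72) and 56.7% (Cd37). With the trend removed, Cr2 went from -1.39 to 0.06, called neither, while Cd22 (-1.50) and Cd81 (-1.97) remained lower. Cd72 (2.50), Vpreb3 (3.0), Cd79a (1.49) and Cd79b (1.41) remained higher, and Siglecg was at -0.01. The fold between the highest and lowest member was 39.8 with the trend removed, and the intervals of 32 of 36 pairs did not overlap. Pairs of other genes were not counted, and the SD was then 1.94 over the members and 1.90 over all tested genes. Removing a trend with transcript length as well brought Vpreb3 to 1.76, Cd72 to 1.70, Cd79a to 0.997 and Cd79b to 0.66, all still called higher, and Cr2 to 0.36. For Cd37 the GC content was known for transcripts holding only 20.1% of its TPM, so its value with the trend removed (-2.31) rests on a small part of its RNA. The part of GC content in the members' ratios was not tested beyond this removal.

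**Figure D3:**
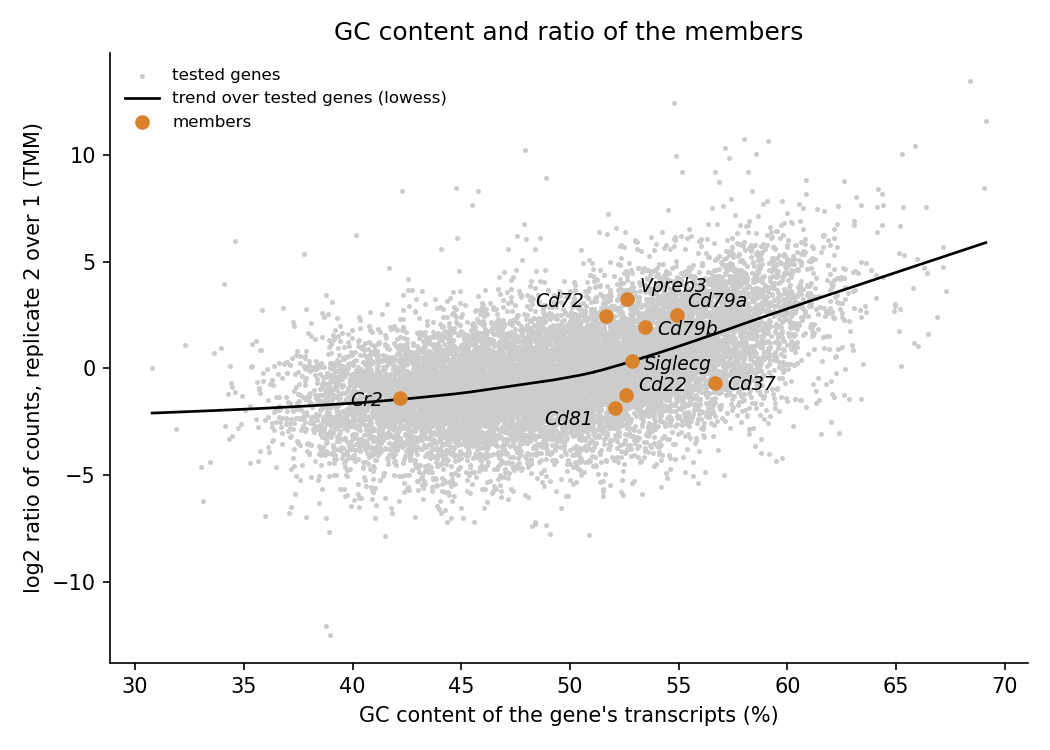
Log2 ratio of counts (TMM, replicate 2 over replicate 1) against the GC content of each gene's transcripts, in percent. Gray points are tested genes (a count of 0 set to 3), the line is their lowess trend and the coloured points are the 9 members. Cr2, at 42.2% GC, lies on the trend, and members with 51.7 to 54.9% GC lie both above it (Cd72, Vpreb3, Cd79a and Cd79b) and below it (Cd22 and Cd81).

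The gene counts of the members did not depend on reads shared with other genes: all 9 were whole numbers with a deposited posterior SD of 0 in both libraries. The division of those reads among transcripts did differ. The tables hold 60 transcripts of the 9 genes, of which 52 were above 0 in replicate 1 and 19 in replicate 2. Replicate 1 was 7.23 times deeper, and the part of depth in this difference was not tested. The dominant transcript, the one with the highest share of its gene's TPM, was the same in both libraries for 5 members, and for 4 of the 8 members with more than 1 transcript. Such counts were not made over all genes, so they cannot be read as particular to the members. Shares are estimates from reads that several transcripts can explain, and no error is given for them. The deposited posterior mean shares were lower for several leading transcripts of replicate 2: Cd22-201 held 75.7% there in place of 99.1%, Cd72-205 88.2% in place of 99.6%, Vpreb3-201 87.9% in place of 100%, and Cr2-202 6.50% in place of 13.8%.

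Cd79b and Vpreb3 kept their main transcript. Cd79b-202 held 95.3% of Cd79b TPM in replicate 1 and 92.1% in replicate 2, and Vpreb3-201 held 100% in both. Both Cd79b transcripts hold the ITAM stretch, so 100% of Cd79b TPM carried it in each library. For Cd81, the coding transcript Cd81-201 held 91.3% and 73.1%, and Cd81-203, annotated with a retained intron, held 7.72% and 26.9%. The latter share rests on 10.2 estimated counts in replicate 2.

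Cr2 was spread over many transcripts. Cr2-202, the full 6207-base coding form, held 32.3% of Cr2 TPM in replicate 1 and 13.8% in replicate 2. Cr2-204, a 2736-base form annotated for nonsense-mediated decay that starts 16964 bases into the gene, held 9.85% and 51.6%. Cr2-205, a 355-base form, was at 0 in replicate 1 and held 25.3% in replicate 2, from 20.4 estimated counts. By class, coding transcripts of Cr2 held 51.4% and 39.1% and retained intron forms 27.3% and 9.24%.

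For Cd22, 15 of 15 transcripts were above 0 in replicate 1 and 2 of 15 in replicate 2, where Cd22-201 held 99.1% (14.1% in replicate 1). The transcripts that hold the 4 ITIM stretches shown above carried 43.9% of Cd22 TPM in replicate 1 and 100% in replicate 2. Most Cd22 counts of replicate 1 were nonetheless on such transcripts: Cd22-203 and Cd22-201 had 9815 and 5413 of 17827. Short transcripts weigh more in TPM than in counts. In replicate 1 the leading form by TPM was Cd22-209, a 489-base transcript that ends 12037 bases short of the gene's 3′ end. It held 30.5% of Cd22 TPM on 926 counts, while the 3819-base Cd22-203 held 26.6% on 9815 counts. These shares move the gene's effective length, which was 1752.03 bases in replicate 1 and 3836.76 in replicate 2, and a longer effective length lowers TPM at the same count.

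For Cd72, Cd72-205 led in both libraries, with 28.4% and 99.6%. Retained intron forms of Cd72 held 48.9% in replicate 1 and 0% in replicate 2, and the effective length was 808.11 and 1289.34 bases. For Siglecg the coding transcript Siglecg-201 held 37.5% in replicate 1 and was listed at 0 in replicate 2, where all 833 counts went to Siglecg-206, a 3898-base form annotated with a retained intron (27.0% in replicate 1). Siglecg-206 also holds both ITIM stretches shown, so 96.3% and 100% of Siglecg TPM was on transcripts with them. Here and for Cd22 the stretches were sought in the transcript sequence alone, without a check of reading frame. Transcripts that hold them, such as retained intron forms, are therefore not shown to encode them.

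Cd37 had 9 transcripts, 7 of which were not matched to the later annotation by identifier, so their classes are not given. The 976-base ENSMUST00000146293 led in replicate 1 with 37.4% (1.93% in replicate 2). The 573-base ENSMUST00000138404 led in replicate 2 with 81.1% (0.25% in replicate 1), on 5.54 and 153 estimated counts. The effective length of Cd37 accordingly went from 1401.28 to 675.84 bases. The share of TPM assigned to different transcripts in the 2 libraries, which is 0% for the same split and 100% for no transcript in common, was 85.1% for Cd22, 80.9% for Cd37, 73.0% for Siglecg, 71.4% for Cd72, 67.1% for Cr2, 19.2% for Cd81 and 3.23% for Cd79b.

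**Figure D4:**
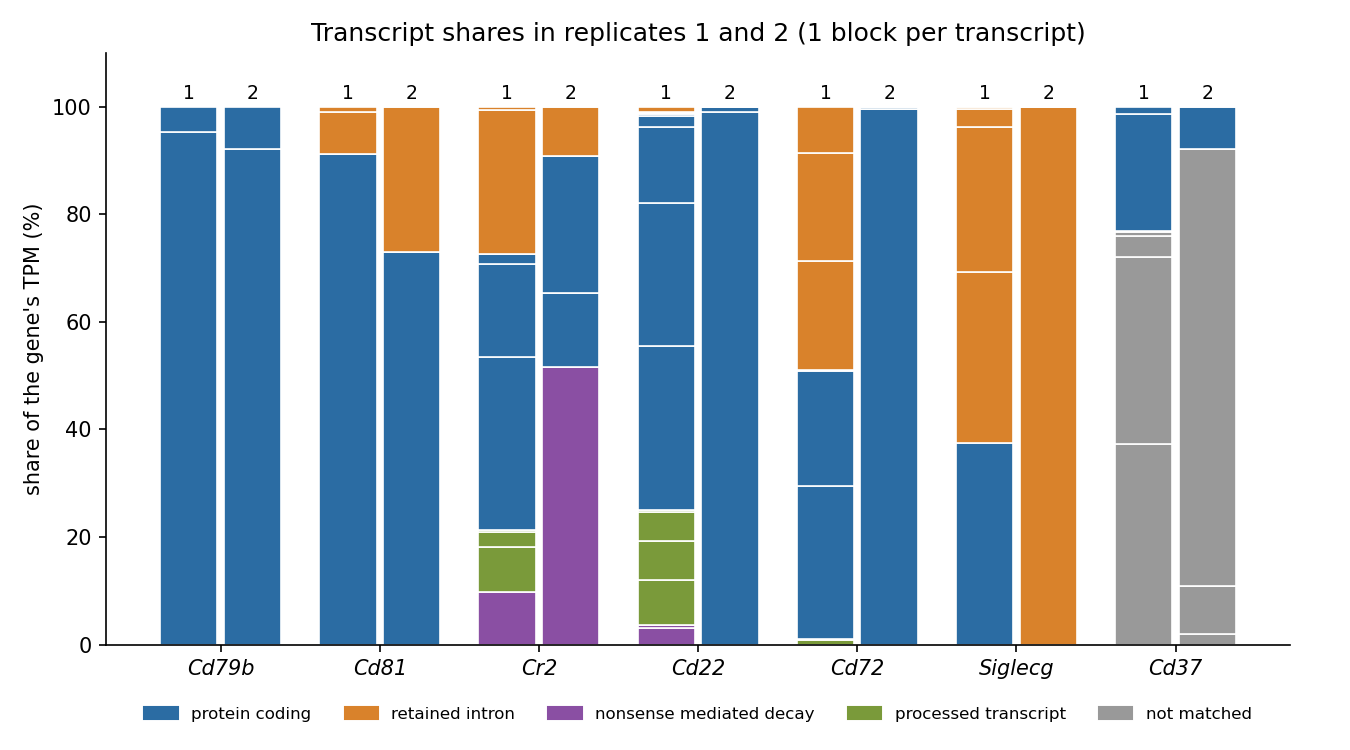
Share of each gene's TPM (percent) held by its transcripts in replicates 1 and 2, for the 7 members with more than 1 transcript above 0; each block is 1 transcript and the colour its GENCODE class. Cd79b keeps its split, Siglecg goes from 37.5% coding to 100% retained intron, and Cd22 goes from 15 transcripts above 0 to 2.

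Several members overlap a gene on the opposite strand, and whether the counting used strand is not given in the sources used here. The overlapping genes had few counts beside the members: 258 and 51 for Tesk1 (Cd72), 42 and 27 for Tead2 (Cd37), 38 and 2 for R74862 (Cd81), 5 and 0 for Gm29439 (Cd22) and 0 in both for Gm16221 (Vpreb3). The 27 counts of Tead2 compare with 291 of Cd37 in replicate 2.

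Among 19 genes that carry the receptor's signal inward, 5 were called higher under TMM, 9 lower and 5 neither, with a median log2 ratio of -0.42. Under the stricter rule 0 were higher and 8 lower. Over all tested genes 28.0% were called higher and 32.6% lower under TMM, and 11.8% and 30.5% under the stricter rule. These shares are the background for every list here. Syk, the kinase that docks on the ITAMs, had 228.22 TPM in replicate 1 and 21.76 in replicate 2 and a log2 count ratio of -0.72. Blnk, the adaptor that Syk phosphorylates, had the highest ratio of the list, 1.94, at 130.84 and 103.32 TPM. Bank1, an adaptor of B cells, had 14525 and 90 counts and a ratio of -3.22. Pik3ap1, an adaptor for phosphoinositide 3-kinase, had 1629 counts in replicate 1 and 0 in replicate 2. The summed TPM of these 19 genes was 2105 and 451.44, a difference near the median TPM ratio of all tested genes.

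Of 14 further genes grouped here under inhibition of the signal, 4 were higher, 6 lower and 4 neither, with a median of -0.38. The grouping was set by hand and does not show that each of them, such as Fcrl1, Fcrla or Inpp5b, damps the signal. Ptpn6, the phosphatase that ITIMs recruit, had 271.86 and 324.78 TPM and a log2 count ratio of 2.41, and was the only 1 of the 14 called higher under the stricter rule. Fcrla, an intracellular Fc receptor-like protein, had 171.85 and 59.88 TPM and a ratio of 1.26. Fcrl5, an Fc receptor-like inhibitor, had 1209 and 6 counts and a ratio of -3.54. Of the ITIM-bearing members, Cd22 (-1.25) thus had a ratio of opposite sign to Ptpn6, while Cd72 (2.48) and Siglecg (0.33) had the same sign.

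Of 12 other tetraspanins, 6 were higher, 1 lower and 5 neither, with a median of 0.69 under TMM and -0.57 under total count. With the GC trend removed their median was 0.05, beside 0.02 for all tested genes. Cd53, a tetraspanin of leukocytes, was the 1 that was lower, with 17817 and 82 counts, 600.19 and 8.69 TPM and a ratio of -3.65, below that of Cd81. Cd63, a tetraspanin of late endosomes, had the highest ratio, 2.30. Of 7 other Siglecs, 4 were tested, with 1 higher, 2 lower and 1 neither. Siglece, of myeloid cells, was higher (3.25), Siglec1, the sialoadhesin of marginal metallophilic macrophages, was lower (-2.64), and Siglech, of plasmacytoid dendritic cells, was neither (-1.03). Of 18 other B cell genes, 5 were higher, 8 lower and 5 neither, with a median of -0.30. Ly6d had the highest ratio there (4.30, 187.18 and 630.18 TPM), Cxcr5, the chemokine receptor of follicular B cells, the lowest (-3.60, 134.69 and 2.06 TPM), and Ms4a1 (CD20) was lower at 630.38 and 63.47 TPM.

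**Figure D5:**
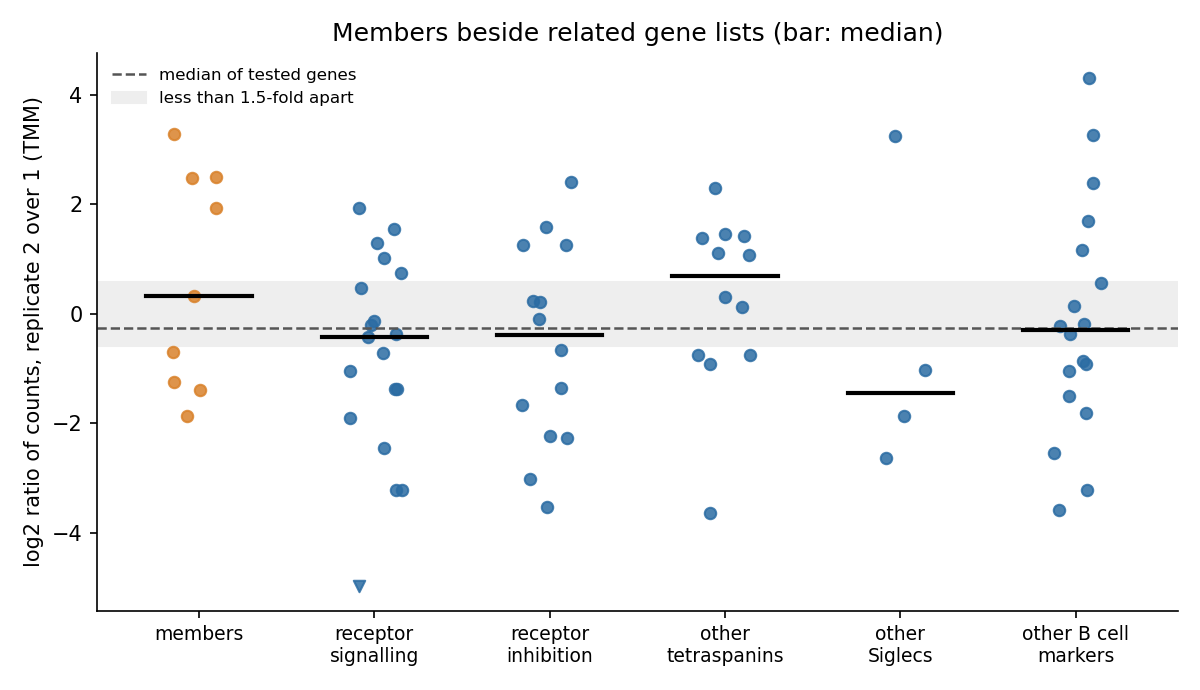
Log2 ratio of counts (TMM, replicate 2 over replicate 1) of the members and of the tested genes of 5 related lists; each point is 1 gene, the short bars are medians, the dashed line is the median of the tested genes (-0.27) and the band is less than 1.5-fold. The downward triangle is Pik3ap1, with 0 counts in replicate 2 set to 3. Each list has points on both sides of the band, and the medians of the lists run from -1.45 (Siglecs) to 0.69 (tetraspanins). With the GC trend removed, which is not drawn, these medians run from -0.81 (Siglecs) to 0.05 (tetraspanins).

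Markers of other spleen cells are given beside the members; the median TPM ratio of all tested genes is -2.10 on the log2 scale. T cell genes summed to 1183 TPM in replicate 1 and 202 in replicate 2 (2 of 15 higher, 6 lower, Trac at 0 in replicate 2), and macrophage genes to 4740 and 1038 (4 of 14 higher, 6 lower). Stromal and endothelial genes summed to 514 and 531 TPM (6 of 12 tested higher, 2 lower, Lyve1 at 0 in replicate 2), and erythroid genes to 718 and 898 (6 of 9 higher, 2 lower). The stromal sum leaned on Ccl19 (105.31 and 362.62 TPM) and the erythroid sum on Alas2 (421 and 790.66 TPM). Most other genes of both lists had a lower TPM in replicate 2, so the sums do not describe the lists as a whole. Serpina1e of the follicular dendritic cell list was at 0 in replicate 2. The part of cell composition in the members' ratios was not tested.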

How the data were processed

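Each library came with a gene and a transcript table. Per the file headers and the accompanying text, reads were aligned to the transcriptome of mm10 with GENCODE M4. No aligner or quantifier is named, and both are thus not given in the sources used here. In the deposited expected count, reads shared between features are divided, as the headers show. The deposited TPM and FPKM were scaled within each library by the authors. The deposited percent value is a transcript's share of its gene's TPM. The deposited interval bounds, lengths and posterior SD are other measures. Of 69691 rows, 43346 carry an Ensembl identifier, 42462 with a symbol. The other rows held 1.09e-05% and 0.00021% of counts and were left out. Symbols, classes, GC content and coding sequences came from GENCODE M21.

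Expected counts were rounded. Tested genes had an average TPM of 1 or more and 50 or more summed counts, a filter that dropped no member. It can drop genes low in both libraries, and also genes with few counts that are higher in replicate 2, such as Nkx2-5 (2 and 40 counts). Scaling factors came from edgeR 4.0.16 (TMM) and, as an alternative, DESeq2 1.42.0 (R 4.3.3), with no model fitted. Intervals of the log2 ratio were 95% Clopper-Pearson intervals of the share of a gene's summed count in replicate 2. A count of 0 was set to 3. GC trends were lowess fits (statsmodels 0.14.6, fraction 0.3). PCR duplicates are not independent molecules, so intervals are too narrow for library error. On simulated Poisson counts for 12467 genes in the comparison of replicate 2 with 1, the rule called 31 of 50 genes at a fold of 2, 50 of 50 at 4, 23 of 50 at 0.5, 40 of 50 at 0.25 and 2 of 12267 unchanged. The simulation held counting error only, with no GC trend or library error, so it does not give the rate of false calls in these libraries.

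The members and lists were chosen with earlier results of these data known. Genes named beside the members are, per list, the 2 with the highest mean TPM and the highest and lowest ratios. Lists for B cells, follicular dendritic cells, T cells, macrophages, stroma and erythroid cells serve as markers. Alternatives were other scalings, filters, thresholds, count estimates and units. The FPKM ratio was added after seeing the data. Signal tracks were not used.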

Additional observations from a re-analysis of the deposited data

Results flagged for a closer look

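In the gene tables, 26248 identifiers are plain numbers that were matched to no gene, and 97 are spike-in rows. Replicate 2 had 8 counts on both kinds of row together, more than the 3 counts that an observed 0 would still allow. Replicate 1 had 3, and the counts were not split between the kinds. No member draws on them, and what they measure was not analysed here.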

How the results depend on the processing

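Of 81 member ratios under other settings, 60 kept their direction and their side of the 1.5-fold rule, 3 kept their direction but fell short of it, 7 passed it anew and 11 changed sign. In TPM, members higher went from 4 to 1 and lower from 3 to 6 at either pseudocount, where 8.40% and 80.8% of tested genes were higher and lower (pseudocount 1). Total count gave 5 lower, as did the FPKM ratio (added after seeing the data). Over all tested genes, 24.5% had a ratio above 0 by total count and 24.6% in FPKM, beside 44.6% under TMM. The share of all tested genes called was not counted by total count or in FPKM. Cd79b went to -0.56 and Cd72 to -0.61 in TPM (pseudocount 1 or 0.1). Cr2 went to 0.063 with the GC trend removed and to 0.36 with the length trend removed too. Siglecg went to -0.93 by total count, -2.28 or -2.31 in TPM, -1.15 in FPKM and -0.012 with the GC trend removed. Of 125 listed genes tested, 44 higher and 43 lower became 16 and 73 by total count, 9 and 103 in TPM at either pseudocount, and 20 and 77 in FPKM. The cause of these changes was not tested. The order by mean TPM placed 4 of 9 members as replicate 1 did by itself and 1 as replicate 2 did, and FPKM, which is proportional to TPM within a library, kept all 9 places once set to a common total. Leaving out either library leaves no ratio, so this was not run. No paired analysis was possible because there is 1 group. Depth limits Cd81 most, with 58 counts in replicate 2, and transcript shares of Cd81, Cr2 and Cd37 there rest on few counts.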
